A study of Sus scrofa with 30 samples.

Results

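The miR-15, miR-16 and miR-424 family was followed in 30 small RNA libraries of porcine endometrium, the inner lining of the uterus, by reading the counts of every listed sequence whose miRBase name has the root mir-15a, mir-15b, mir-16, mir-195, mir-424, mir-497 or mir-503. Of the annotated sequences of the study, 15 carried one of these names and 858 did not. mir-16 had 5 of them, and mir-195 and mir-497 had 4 each. mir-15b and mir-424 had 1 each, and no listed sequence carried the name mir-15a or mir-503. Each library came from 1 Hampshire x Duroc crossbred gilt aged 7 to 8 months from a single herd. Pregnant gilts (P) had been inseminated and were examined on day 12 (PD12, n = 5), day 16 (PD16, n = 5) and day 20 (PD20, n = 6). Gilts in the estrous cycle (C) were examined on the same days (CD12, n = 4; CD16, n = 5; CD20, n = 5). Conceptuses were flushed out of the horns on days 12 and 16. On day 20 of pregnancy the samples were taken at implantation sites once the embryos and their trophoblast had been removed. PD20 tissue had thus been in contact with attached trophoblast. In comparisons with PD20 this sampling site cannot be told apart from day or status. The libraries were made from total RNA of whole endometrium, in which fewer cells of a type and less RNA per cell cannot be told apart. Between 2029729 and 6402731 reads were deposited per library, and 1574834 to 5241838 of them belonged to annotated sequences.

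MicroRNAs (miRNAs) are short RNAs that guide Argonaute proteins to messenger RNAs, chiefly by pairing of the seed, bases 2 to 8 of the miRNA. The family shares one seed, so that its members can bind the same target sites. It is best known for restraining cell proliferation and survival, with cyclins, cyclin-dependent kinases and BCL2 among the known targets. The members are made from several places in the genome. In the pig gene table of RefSeq (assembly Sscrofa11.1) MIR15A lies within 10000 bases of MIR16-2 on chromosome 11, MIR15B beside MIR16-1 on chromosome 13, and MIR195 beside MIR497 on chromosome 12. Mature miR-16 is the same from both of its genes, and its reads cannot be divided between them. No entry for miR-424 or miR-503 was found in that table, in which the genes MIR450A, MIR450B, MIR450C and MIR542 stand next to each other on chromosome X. miR-424 and miR-503 are known to be transcribed with these in other mammals.

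The sequences that the results turn on are given from the annotation list of the study, 5′ to 3′ with T for U and with the seed in capitals. DEL and ADD name bases missing from or added to the 3′ end of the canonical form.
miR-15b: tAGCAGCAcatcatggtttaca
miR-16: tAGCAGCAcgtaaatattggcg
miR-16 DEL G: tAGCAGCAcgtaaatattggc
miR-16 ADD T: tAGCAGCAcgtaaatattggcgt
miR-195: tAGCAGCAcagaaatattggc
miR-195 ADD A: tAGCAGCAcagaaatattggca
miR-424: cAGCAGCAattcatgttttga
miR-497: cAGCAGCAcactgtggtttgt
miR-497 5′ DEL C ADD AC: aGCAGCACactgtggtttgtac
The seed AGCAGCA was shared by 14 of the 15 sequences. The exception was a miR-497 form that starts 1 base later, which moves its seed to GCAGCAC. Canonical miR-16 and miR-195 differed at 2 of 21 compared positions, G10A and T11G, counted from 1 at the 5′ end. miR-15b differed from miR-16 at 8 of 22 positions and miR-497 from miR-195 at 9 of 21, all of these outside the shared seed. The miR-424 sequence was listed only under its hairpin, so it is not known here to be the canonical form.

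The family was a minor part of the endometrial miRNAs. Its 15 sequences together held a median of 0.0367% of the annotated reads, with a range from 0.0140% to 0.323%. Levels are given as counts per 1000000 annotated reads (CPM), scaled by the trimmed mean of M-values (TMM). Canonical miR-16 was the most read member, with 147 ± 187 CPM (SD, n = 30) and rank 180 among all annotated sequences. miR-195 ADD A followed with 93.8 ± 91.5 CPM and canonical miR-195 with 80.8 ± 73.3 CPM. miR-497, which is made from the same locus as miR-195, had 9.67 ± 4.46 CPM, miR-424 8.48 ± 7.29 CPM and miR-15b 7.50 ± 3.94 CPM. These are levels of reads, and the efficiency with which each sequence enters a library is not known, so the order of the members is an order of reads. All 15 sequences were read in each of the 30 libraries except miR-16 ADD C. That form had 0 reads in PD20 animal 3 and CD16 animal 3, where a count of 0 allows up to 1.25 and 1.42 CPM.

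Canonical miR-16 was at 1054, 445, 113, 86.3 and 130.5 CPM in the 5 CD20 animals. In the 5 CD16 animals it was at 75.9, 82.4, 109, 90.4 and 39.5 CPM. In the 4 CD12 animals the level was 165, 74.6, 187 and 74.2 CPM. The CD20 mean was thus carried by animals 1 and 2, and the other 3 CD20 animals lay within the range of the earlier days. During pregnancy miR-16 was at 100.4, 105, 61.9, 111 and 189 CPM on day 12, at 209, 76.6, 61.4, 55.5 and 115 CPM on day 16, and between 76.9 and 167 CPM with a median of 89.0 CPM in the 6 PD20 animals. The order of the group means was CD20 (366 ± 411 CPM), CD12 (125 ± 59.3), PD12 (113 ± 46.3), PD16 (104 ± 63.4), PD20 (99.9 ± 33.7) and CD16 (79.4 ± 25.6), and each group overlapped its neighbour in this order. Without CD20 animal 1 the CD20 mean was 194 CPM, and without animals 1 and 2 it was 109.8 ± 22.2 CPM (n = 3), below the CD12 and PD12 means.

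miR-195 is transcribed apart from miR-16 and differs from it by 2 bases, and it ran close to it. Its most read form, miR-195 ADD A, was at 527, 229, 109.9, 67.9 and 135 CPM in CD20 and at 46.8, 63.2, 69.4, 63.5 and 42.3 CPM in CD16. In CD12 it was at 126, 51.0, 121 and 22.3 CPM. The 2 highest of all 30 libraries were again CD20 animals 1 and 2. In pregnancy the form ranged from 48.8 to 97.6 CPM on day 12, from 44.3 to 121 CPM on day 16 and from 35.3 to 91.1 CPM on day 20. Canonical miR-195 was at 407, 191, 95.4, 73.5 and 128 CPM in CD20, all above the CD16 animals, which were at 43.0, 65.8, 70.3, 50.5 and 34.7 CPM. In CD12 it was at 109.6, 4.36, 148 and 2.47 CPM, an uneven group described further down.

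miR-497 is known to share its primary transcript with miR-195. Its canonical form was at 22.7, 15.9, 12.6, 10.02 and 15.2 CPM in CD20 against 6.46, 8.13, 6.13, 7.42 and 2.79 CPM in CD16, with no overlap. CD12 animals had 5.48, 15.4, 10.04 and 4.95 CPM, and the 3 pregnant groups had means of 8.85, 9.64 and 9.07 CPM. Here CD20 animals 1 and 2 did not stand apart from the rest of their group as they did for miR-16. Without them the CD20 mean moved from 15.3 ± 4.76 to 12.6 ± 2.61 CPM. miR-424 had 40.1, 22.2, 10.2, 5.57 and 3.33 CPM in CD20 and 3.23, 6.29, 5.19, 10.7 and 3.19 CPM in CD16. The other 5 groups had miR-424 means from 5.71 to 8.80 CPM, and without CD20 animals 1 and 2 the CD20 mean was 6.38 ± 3.52 CPM, inside that range.

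miR-15b, expressed from the locus that holds one of the miR-16 genes, had another profile. Its group means were 5.90 ± 2.07 (PD12), 10.6 ± 3.10 (PD16), 7.89 ± 3.59 (PD20), 3.69 ± 2.52 (CD12), 7.70 ± 6.05 (CD16) and 8.38 ± 3.15 CPM (CD20). CD20 animals had 13.6, 7.40, 8.38, 7.24 and 5.24 CPM and CD16 animals 9.42, 1.11, 2.83, 8.81 and 16.4 CPM, so the groups lay across each other. The highest miR-15b level of all was in CD16 animal 5, which had the lowest miR-16 level of all. The miR-15b values rest on 3 to 43 reads per library, and counting error alone is large at the lower end.

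**Figure D1:**
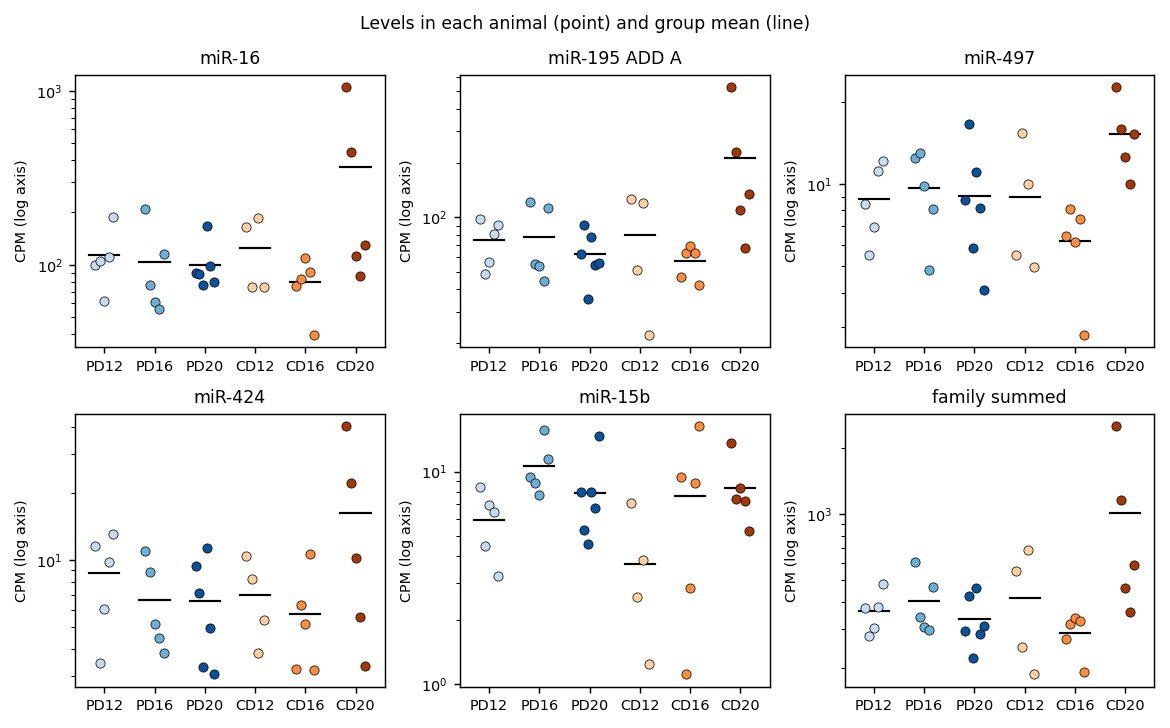
Level of 5 family sequences and of the 15 summed, in CPM on log axes, in each of the 30 animals (points) with the mean of each group (line). CD20 animals 1 and 2 stand above all other animals for miR-16 (1054 and 445 CPM) and miR-195 ADD A (527 and 229 CPM), whereas miR-15b shows no such animals.

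For day 20 against day 16 of the cycle, 13 of the 15 sequences had a positive log2 fold change (log2FC), with a median of 1.41 against -0.03 over all annotated sequences. None was called, a call being an adjusted p under 0.05 by edgeR's quasi-likelihood test with Benjamini-Hochberg adjustment over all annotated sequences together with an absolute log2FC over 1. By that rule 0.458% of all sequences (4 of them) were called for CD20 vs. CD16. At an unadjusted p under 0.05, 11 of the 15 were counted, all of them higher in CD20, against 21.2% of all sequences in either direction and 12.6% higher. The largest differences were those of miR-16 ADD C (log2FC 2.33, SE 0.76), miR-16 ADD T (2.32, SE 0.60) and canonical miR-16 (2.13, SE 0.61), and the lowest adjusted p of any member was 0.0957. Other tools called more sequences here, 4 members and 6.41% of all sequences by edgeR's likelihood ratio test and 6 members and 8.59% of all by DESeq2. For 3 members, miR-16 DEL G, miR-195 and miR-497, the groups did not overlap, where 3.44% of all sequences were higher without overlap. The count at an unadjusted p under 0.05 fell to 6 without CD20 animal 1, against 13.7% of all sequences, and to 1 without animals 1 and 2, against 7.45% of all. That member was miR-16 ADD T (log2FC 1.36, SE 0.57). With both left out, the median log2FC of the members was 0.59 and canonical miR-16 stood at 0.39 (SE 0.43) and canonical miR-497 at 0.95 (SE 0.48).

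All 5 miR-16 forms and all 4 miR-195 forms had a log2FC between 1.21 and 2.33 for CD20 vs. CD16. Among the miR-497 forms the canonical one had 1.22 (SE 0.44), ADD A 0.51 (SE 0.48), ADD AC -0.42 (SE 0.53) and the form with the moved seed -0.38 (SE 0.50). miR-424 had 1.48 (SE 0.58) and miR-15b 0.02 (SE 0.58). Without CD20 animals 1 and 2 miR-424 stood at 0.11 (SE 0.53). With the forms of each miRNA summed and 245 features tested, miR-16 was called for this comparison (log2FC 1.76, SE 0.49, adjusted p = 0.0441 by edgeR's quasi-likelihood test), and miR-195 (1.60, SE 0.54, adjusted p = 0.0882) was not, where 4.49% of all features were called. The summed miR-16 level was 1419, 640.2, 187, 174 and 265 CPM in CD20 and 135, 143, 159, 156 and 74.2 CPM in CD16. All 5 CD20 animals were higher, 2 of them by a wide margin and the other 3 by a smaller one.

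The earlier days of the cycle were compared in one joint test of CD16 and CD20 against CD12. No member was called by the quasi-likelihood test, where 0.115% of all sequences were called for CD16 vs. CD12 and 0.458% for CD20 vs. CD12. At an unadjusted p under 0.05 the joint test counted 10 of the 15 members and 23.9% of all sequences. The likelihood ratio test and DESeq2 each called 1 member for CD16 vs. CD12, where they called 5.27% and 5.84% of all sequences, and 3 for CD20 vs. CD12, where they called 5.73% and 6.41%. The members had a median log2FC of -0.43 for CD16 vs. CD12 and 1.203 for CD20 vs. CD12. No member was higher in CD20 than in CD12 without overlap, where 2.86% of all sequences were. Without CD12 animal 3 the CD16 median was -0.08. Without CD20 animal 1 the joint test counted 3 members (19.8% of all sequences), and without CD20 animals 1 and 2 it counted 1 (16.6% of all) with a CD20 vs. CD12 median of 0.12. Without CD12 animals 2 and 4 it counted 9 (18.1% of all), with medians of -0.72 for CD16 and 0.62 for CD20. The sample titles carry a number that runs to 36, and with these numbers taken in 3 runs of 12 and fitted as a covariate the joint test counted 7 members (24.5% of all), with medians of -0.78 for CD16 and 0.35 for CD20. No CD12 animal fell in the first run. In the second and the third, canonical miR-16 was 0.829 times (2 CD20 animals against 2) and 1.00 times (1 against 2) as high in CD20 as in CD12. In the same runs miR-424 was 0.850 and 0.726 times as high and canonical miR-195 1.48 and 1.70 times. The 15 sequences summed were 1.03 and 1.35 times as high.

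Within pregnancy no member was called by edgeR's quasi-likelihood test, its likelihood ratio test or DESeq2. The shares of all sequences below are those of the quasi-likelihood test. The lack of a call by the other tools is not set against a share here. Of all sequences, the joint test of PD16 and PD20 against PD12 called 0.229% for PD16 vs. PD12 and 0.802% for PD20 vs. PD12. It counted 2 members at an unadjusted p under 0.05, miR-16 DEL CG and miR-16 ADD T, where 18.7% of all sequences were counted. Medians of the members were 0.20 for PD16 vs. PD12 and 0.01 for PD20 vs. PD12. For PD20 vs. PD16, where 0.573% of all sequences were called, again no member was, and 1 member had an unadjusted p under 0.05, against 14.2% of all sequences. It was miR-16 ADD T, at 22.8, 22.4, 30.5, 27.6 and 36.6 CPM in PD16 and between 9.77 and 21.9 CPM in PD20 (median 16.8). The groups did not overlap (log2FC -0.86, SE 0.30, adjusted p = 0.232 by edgeR), where 0.573% of all sequences were lower without overlap. Canonical miR-16 had a log2FC of -0.13 (SE 0.37) for the same days.

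Between pregnant and cyclic animals, day 12 gave no member with an unadjusted p under 0.05 by edgeR's test, where 6.07% of all sequences had one and 0% were called. No member was called by the likelihood ratio test or DESeq2 either, on day 12 or day 16. For these tools no share of all sequences is given here, so the lack of a call is not set against one. Canonical miR-16 stood at -0.14 (SE 0.42) and the median of the members at -0.14 on day 12. Without CD12 animals 2 and 4, 3 members had an unadjusted p under 0.05 on day 12 (3.55% of all sequences), none was called, the median was -0.56 and canonical miR-195 stood at -1.21 (SE 0.41) in place of -0.22 (SE 0.84). On day 16 no member was called, nor was any other annotated sequence (0%), and 2 members had an unadjusted p under 0.05 against 10.9% of all. Those were miR-16 ADD T (log2FC 1.19, SE 0.37, adjusted p = 0.281 by edgeR) and miR-16 ADD C (1.30, SE 0.60, adjusted p = 0.430 by edgeR). miR-16 ADD T had 13.2, 17.4, 14.2, 7.42 and 6.78 CPM in CD16, all below the PD16 animals, where 0.687% of all sequences were higher in PD16 without overlap.

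On day 20 all 15 sequences were lower in pregnant than in cyclic endometrium by sign, with a median log2FC of -1.12 against -0.03 over all sequences. No member was called for PD20 vs. CD20 by the quasi-likelihood test, where 1.49% of all sequences (13 of them) were. The likelihood ratio test and DESeq2 each called 5 members, where they called 14.2% and 15% of all sequences (124 and 131 of them). At an unadjusted p under 0.05, 6 members were counted, all lower in PD20, against 28.5% of all sequences in either direction and 15.2% lower. The 6 were miR-16 ADD T (log2FC -1.98, SE 0.50, adjusted p = 0.0519), miR-195 ADD A (-1.76, SE 0.47, adjusted p = 0.0553), canonical miR-195 (-1.68, SE 0.46, adjusted p = 0.0581), canonical miR-16 (-1.87, SE 0.57, adjusted p = 0.0630), miR-16 DEL G (-1.32, SE 0.42, adjusted p = 0.0665) and miR-424 (-1.30, SE 0.58, adjusted p = 0.156), all by edgeR's quasi-likelihood test. With the runs of title numbers as a covariate, 4 members were counted (23.6% of all sequences) and the median was -0.73. The groups overlapped for each of the 15 members, where 2.18% of all sequences were lower in PD20 without overlap. Without CD20 animals 1 and 2 the log2FC of 5 of the 15 members turned positive (miR-15b, miR-16 DEL CG, miR-195 DEL C, miR-195 ADD AT and miR-424), the median was -0.31 and 1 member had an unadjusted p under 0.05 (11.3% of all), miR-16 ADD T (-0.98, SE 0.45). Canonical miR-16 then stood at -0.09 (SE 0.34), and canonical miR-195 at -0.78 (SE 0.38). With forms summed, neither miR-195 (log2FC -1.33, SE 0.40, adjusted p = 0.0537 by edgeR) nor miR-16 (-1.36, SE 0.46, adjusted p = 0.0705 by edgeR) was called, where 6.12% of all features were. miR-15b stood at 0.20 (SE 0.38) in that fit, on the other side of 0 from its value among single sequences.

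Whether the change between days depended on reproductive status was tested as an interaction in one fit of all 30 libraries, called at an adjusted p under 0.05. For day 20 against day 16, 2 of the 15 members were called, and 2.41% of all sequences (21 of them). miR-16 ADD T had a difference of log2FC of -3.22 (SE 0.66, adjusted p = 0.0233 by edgeR) and miR-16 DEL G one of -1.82 (SE 0.49, adjusted p = 0.0440 by edgeR), the pregnant change minus the cyclic change. At an unadjusted p under 0.05, 9 members were counted against 19.1% of all sequences, but 4 without CD20 animal 1 (14.1% of all) and 2 without CD20 animals 1 and 2 (11.1% of all). miR-16 ADD T was at 148, 69.1, 14.9, 23.4 and 58.1 CPM in CD20, so that 4 of 5 animals were above the highest CD16 animal, while in pregnancy every PD20 animal was below every PD16 animal. miR-16 DEL G was at 176, 103, 49.3, 54.6 and 66.2 CPM in CD20 against 39.8, 37.7, 32.6, 49.1 and 24.7 CPM in CD16. Its pregnant levels were 44.3 to 68.3 CPM on day 16 and 14.7 to 61.4 CPM on day 20. Neither call remained without CD20 animal 1, without CD20 animal 2, without PD16 animal 5 or without CD16 animal 5, where 0 of all sequences were called. Leaving out any other single library left 1 to 4 calls. Only 1 was left, for example, without CD12 animal 4 or without CD16 animal 2, where 1 of all sequences was called. Without CD20 animals 1 and 2 the difference was -2.20 (SE 0.60) for miR-16 ADD T and -1.12 (SE 0.45) for miR-16 DEL G, again with 0 of all sequences called. With the replicate number fitted as a block neither was called, nor was any other sequence (0 of all). For day 20 against day 12 no member was called, with 0.115% of all sequences called, and 4 members had an unadjusted p under 0.05 against 16.4% of all. That count was 0 without CD20 animal 1 (11.9% of all), without CD20 animals 1 and 2 (8.93%) or without CD12 animals 2 and 4 (6.3%). It was 2 without CD12 animal 2, CD12 animal 4 or PD12 animal 5. For these single animals no share of all sequences is given, so the count of 2 is not set against one. For day 16 against day 12 no sequence at all was called (0%), and 3 members had an unadjusted p under 0.05 against 8.13% of all, a count that was 0 without CD12 animal 3 (5.84% of all) and 5 without CD12 animals 2 and 4 (7.45% of all).

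**Figure D2:**
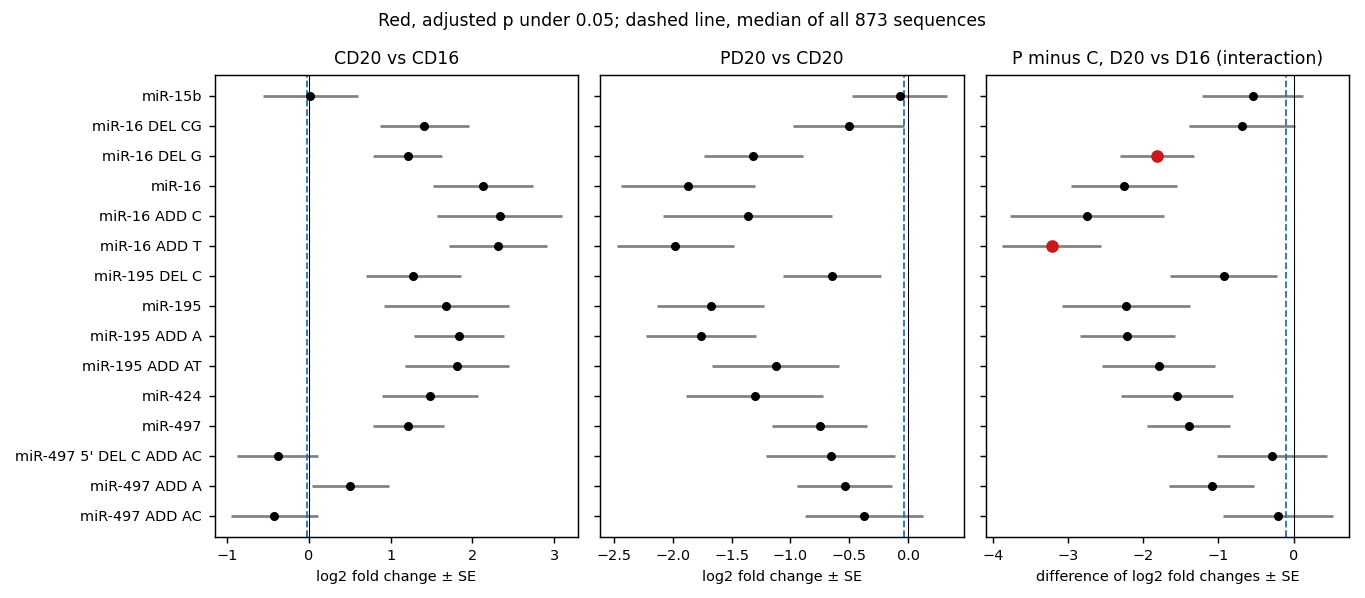
Difference of each of the 15 sequences with its SE for CD20 vs. CD16, PD20 vs. CD20 and the interaction of status with day 20 against day 16; the dashed line is the median of all annotated sequences and red points had an adjusted p under 0.05 by edgeR. Most miR-16 and miR-195 forms lie away from the dashed line in all 3 panels, miR-15b and the longer or 5′ shortened miR-497 forms lie near it in the first, and 2 interaction points are red.

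CD20 animals 1 and 2 were the 2 highest of 30 libraries for 8 of the 15 members, compared with 7.22% of all annotated sequences. Animal 1 alone was the highest for 12 of the 15, compared with 15.7% of all sequences. These animals were singled out after their family levels had been seen, and forms of the same miRNA are not independent. The counts therefore describe the 2 libraries and test nothing. The depth of these libraries was 2640551 and 3112489 reads and their TMM factors were 1.28 and 1.14, the first being the highest of the 30. In the titles of the samples these animals have numbers 6 and 12. What the number stands for is not stated, and the libraries were sequenced in 3 pools. Over the 3 runs of title numbers, canonical miR-16 was 9.47 times higher in CD20 than in CD16 in the first run (2 animals against 2), 1.00 times in the second (2 against 2) and 3.30 times in the third (1 against 1). For PD20 over CD20 the same ratios were 0.119, 1.22 and 0.681. Canonical miR-195 was higher in CD20 than in CD16 in each run, at 5.49, 1.40 and 3.68 times, and its PD20 over CD20 ratios were 0.236, 0.549 and 0.400. The direction of canonical miR-16 for PD20 vs. CD20 thus differed between runs and that of canonical miR-195 did not. This did not hold for all forms. miR-16 DEL G, ADD T and ADD C and miR-195 ADD A were lower in PD20 in each run. miR-16 DEL CG, miR-195 DEL C and miR-195 ADD AT were not. With forms summed the ratios were 0.144, 1.05 and 0.564 for miR-16 and 0.2255, 0.631 and 0.426 for miR-195.

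Markers of other cells were read in the same libraries from lists of miRNAs. All 11 miRNAs of the epithelial list, miR-200c the most read of them with 4616 CPM, were present, as the tissue label has it. Summed, that list had 13047 ± 2450 CPM in CD20, the lowest group, and 20987 ± 6847 CPM in CD16. The leukocyte list, of which miR-142, miR-150, miR-155 and miR-146a were listed and miR-223 was not, had 440 ± 93.0 CPM in CD20 and 145 ± 59.6 CPM in CD16. Of its 15 sequences, 10 were higher in CD20 than in CD16 at an unadjusted p under 0.05, against 12.6% of all sequences, and 1 of them was called, against 0.458%. Within CD20 the leukocyte sum was 565, 391, 504, 407 and 333 CPM, highest in animal 1, with animal 2 below animals 3 and 4. miR-126 of the endothelium, whose 17 forms were summed, was at 4836, 4381, 4584, 4956 and 4264 CPM in CD20, each above every CD16 animal (2289 to 3879 CPM). CD20 animals 1 and 2 did not stand apart from the rest of their group here. Erythrocyte miR-451, miR-144 and miR-486 were all read, and miR-451 was at 1647, 795, 682, 1507 and 279 CPM in CD20 and up to 2844 CPM in CD16. Of the embryonic miRNAs miR-302, miR-367, miR-371, miR-372 and miR-373, known from early embryonic cells, miR-302 was listed (1 of 5). It is listed only under Ensembl gene IDs and was named here by an exact match to the sequence that the study assayed as miR-302. It had 7, 4, 11, 117, 48 and 121 reads in the 6 PD20 animals, or 2.44, 2.37, 4.57, 39.3, 17.1 and 41.2 CPM. It had 2 reads in CD20 animal 1, 1 read in CD20 animal 5 and 0 in the other libraries. It was called higher in PD20 than in CD20 (adjusted p = 0.00775 by edgeR), a comparison in which no family member was called. Another 16 listed sequences carry only an Ensembl gene ID and remained without a name. The list for smooth muscle and stroma, miR-143 and miR-145, had 99625 ± 19533 CPM in CD20 and 116387 ± 35429 CPM in CD16, and miR-143-3p was its most read sequence (61442 CPM). PD20 animal 1 had 636004 CPM of it, against 209206 CPM in the next library, CD12 animal 2. The same animal had 40186 CPM of the striated muscle list, of which miR-1, miR-206 and miR-499 were listed and miR-133a and miR-133b were not, and its TMM factor of 0.644 was the lowest of the 30. No member was called for PD20 vs. CD20 without this animal either. With each library of this comparison left out in turn, 0.573% to 13.3% of all sequences were called. For the comparison of PD20 with CD20 the sums were as follows. In PD20 the epithelial list had 20384 ± 5069 CPM (CD20 13047), the erythrocyte list 2190 ± 1177 CPM (CD20 1076 ± 618), the leukocyte list 312 ± 116 CPM (CD20 440), miR-126 3913 ± 606 CPM (CD20 4604 ± 293) and the list for smooth muscle and stroma a median of 112963 CPM (CD20 92884). The part of these cell types in the family's levels was not tested.

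The lists of related miRNAs gave partial company to the family. Of the proliferation clusters (miR-17, miR-20a, miR-19b, miR-92a, miR-106a, miR-106b, miR-93 and miR-25 were listed, 8 of 12), 2 of 29 sequences were called higher in CD20 than in CD16 and none lower, against 0.458% of all sequences called in either direction, and the median log2FC was 0.12. miR-17, known to promote proliferation, was at 244, 174, 83.8, 42.9 and 55.7 CPM in CD20 and 19.9, 22.6, 21.7, 36.6 and 13.96 CPM in CD16, the same 2 animals being highest and the groups not overlapping. The neighbours of miR-424 on chromosome X in other mammals, miR-450a, miR-450b, miR-450c and miR-542, had 15 listed sequences, none of them called for CD20 vs. CD16 or PD20 vs. CD20. Their medians were 0.51 and -0.68, and 3 and 5 of them had an unadjusted p under 0.05 in those directions, against 12.6% and 15.2% of all sequences. miR-103 and miR-107, whose seed is offset from that of the family by 1 base, had 9 sequences, none with an unadjusted p under 0.05 in either comparison and with medians of -0.16 and 0.15.

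Across the 30 libraries the summed forms of miR-16 and miR-195 ran together, with Pearson's r = 0.84 on the scale of log2 of CPM plus 1 and r = 0.71 over the 28 libraries without CD20 animals 1 and 2. For miR-195 and miR-497, products of one transcript, r was 0.54 over 30 and 0.41 over 28. For miR-16 and miR-424 it was 0.70 and 0.33, and for miR-15b and miR-16 it was 0.12 and -0.12. These are descriptions, since all points share a library size and group differences. Outside the family, 543 sequences whose mean was 10 CPM or more were compared with canonical miR-16, and those most like it were 2 forms of miR-186 (r = 0.86 and 0.85) and a form of miR-20a (r = 0.85). For these, r was between 0.64 and 0.65 without the 2 animals. Canonical miR-195 was most like a form of miR-146a (r = 0.77), miR-126-3p (r = 0.76) and a form of miR-23a (r = 0.66), and canonical miR-497 most like forms of miR-27a (r = 0.70), miR-101 (r = 0.66) and miR-20a (r = 0.65).

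**Figure D3:**
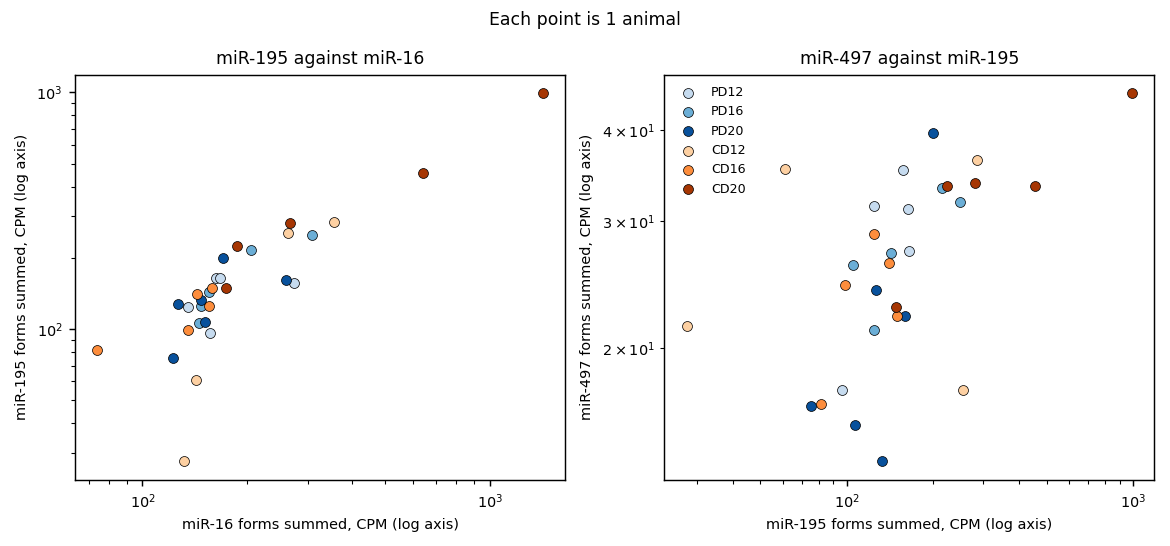
Summed forms of miR-195 against miR-16 and of miR-497 against miR-195, in CPM on log axes, with 1 point per animal coloured by group. Points of miR-195 and miR-16 run along a line (r = 0.84 over 30 animals) with 2 CD12 animals below it, and miR-497 against miR-195 is more scattered (r = 0.54).

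The 3′ end of each miRNA was heterogeneous. Of the listed miR-16 reads, 58.5 ± 9.08% (SD, n = 30) were canonical, 24.2 ± 6.23% lacked the last base, 12.6 ± 5.15% had an added T, 2.74 ± 1.63% lacked 2 bases and 1.91 ± 1.27% had an added C. For miR-195 the form with an added A was the most read, with 50.5 ± 9.72% against 41.0 ± 10.3% canonical. The miR-497 reads were spread over 4 forms, 35.1 ± 10.04% of them canonical and 15.2 ± 6.75% with the moved seed. In all, 5 ratios were tested over 9 comparisons of groups by an exact permutation test of the animals, two-sided, 45 tests in all, and none reached an adjusted p under 0.05. The smallest exact p was 0.00794 with 5 animals against 5 or 4 and 0.00216 with 6 against 5, so a single ratio could not have passed on its own after adjustment over 45 tests, and the lack of a call says little about the ratios. The canonical share of miR-16 had a geometric mean between 0.497 (PD16) and 0.615 (PD12). miR-16 exceeded miR-195 by 1.13 times in CD20 and 1.11 times in CD16 in geometric mean, a log2 difference of 0.02 (exact permutation p = 0.889, adjusted p = 0.952), so the ratio of these miRNAs was close in groups whose mean levels were not.

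The reads of miR-497 ADD A and ADD AC over those of the canonical form had a geometric mean of 0.940 in CD20 (range 0.785 to 1.33) and 2.10 in CD16 (1.58 to 3.27), without overlap. The log2 difference was -1.16, with an exact permutation p = 0.00794, the smallest that 5 against 5 can give, and an adjusted p = 0.357. The ratio of miR-497 to miR-195 had a geometric mean of 0.0988 in CD20 and 0.202 in CD16 (log2 difference -1.03, exact permutation p = 0.0238, adjusted p = 0.513). In each of the 4 other groups ADD A and ADD AC together outnumbered canonical miR-497 in geometric mean, from 1.18 times in PD20 to 1.68 times in PD12.

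CD12 animals 2 and 4 were unlike all others in miR-195. Their reads were 199 of ADD A against 17 of the canonical form, and 54 against 6. The ratio of ADD A to canonical was therefore 11.4 and 8.38, against 0.816 and 1.15 in the other CD12 animals and at most 1.74 in the remaining groups. Relative to CD12 animals 1 and 3, canonical miR-195 had a log2 difference of -5.04, miR-195 ADD A of -1.74 and canonical miR-16 of -1.24, with a median of -0.01 over 548 sequences of at least 10 CPM. No sequence of the 548 was lower than canonical miR-195 by this measure. These animals were the 2 lowest of 30 for 2.01% of those sequences, and their depth was 6402731 and 4150621 reads. Their miR-126 sums, 2101 and 1782 CPM, were the lowest of the 30 libraries. The part of tissue composition or library preparation in this was not tested.

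**Figure D4:**
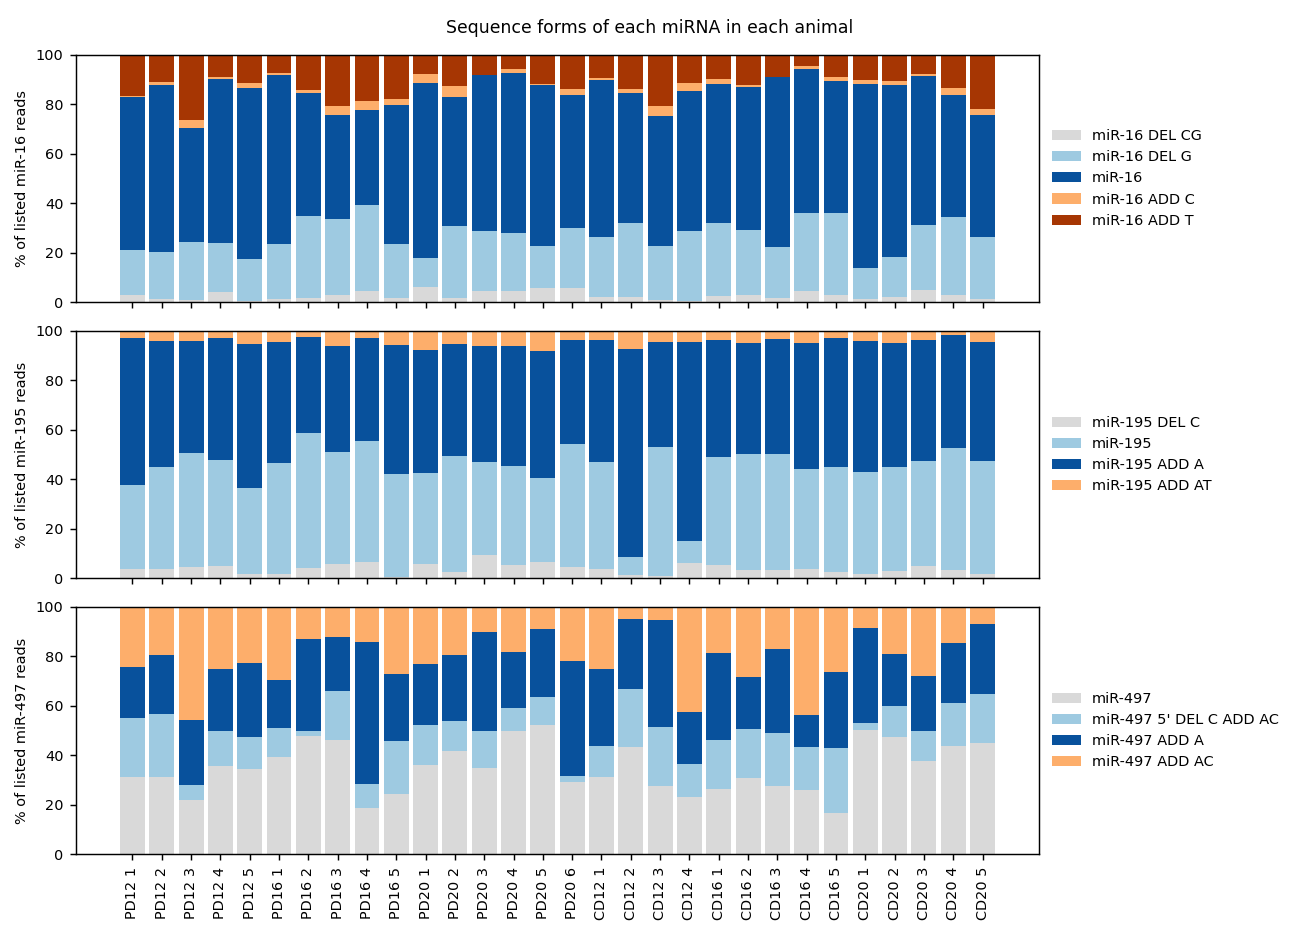
Share of each listed sequence among the reads of miR-16, miR-195 and miR-497, in percent, with 1 bar per animal. The miR-16 bars hold a canonical part of 38.1% to 74.3%, CD12 animals 2 and 4 stand out by the small canonical part of miR-195, and the canonical part of miR-497 is larger in every CD20 bar (37.5% or more) than in every CD16 bar (30.99% or less).

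Further sequences that begin with the same 18 bases were deposited without being in the annotation list. For miR-16 they were 106 sequences with 4043 reads, 18.3% of all reads with that start. The most read of them was tagcagcacgtaaatattggcga, canonical miR-16 with an added A, with 1158 reads in the 30 libraries. It averaged 43.0 CPM in CD20 and 6.82 CPM in CD16, both without TMM scaling. For miR-195 there were 82 such sequences (12.6% of reads), for miR-497 35 (22.2%), for miR-15b 15 (34.4%) and for miR-424 24 (39.1%). The most read of miR-424, cagcagcaattcatgttttgaa, averaged 6.66 CPM in CD20 and 0.436 CPM in CD16 on that scale. Unlisted forms of miR-16 and miR-424 were thus also higher in the CD20 mean, the group that holds the 2 animals with the highest listed forms.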

How the data were processed

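The deposited files gave, per library, the count of each distinct read sequence of 17 bases or more. Per the labels and the methods of the study, the authors extracted total RNA, made libraries with a NEXTflex kit, sequenced 3 pools in 2 runs, dropped reads with low-quality bases, cut adapters and collapsed identical reads. They annotated 873 sequences by full match to miRNAs in miRBase, Ensembl, EMBL or NCBI, after a minimum of reads in several samples of a group. Names and sequences were taken from that list, miR-302 from the sequence of its assay in the study, and the values of the authors' own comparisons in it were not used. The 15 members and all other lists were chosen with earlier results of these data known.

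Counts of the 873 sequences were fitted with edgeR 4.0.16 (R 4.3.3) by the quasi-likelihood test, with TMM scaling, the sum of the 873 as library size and a prior count of 0.125. Days were fitted within each status, and status within each day. SE is the log2FC divided by the square root of its single-contrast F. Ratios were tested by exact permutation with 0.5 read added to both terms. Alternatives were a likelihood ratio test, DESeq2 1.42.0, relative log expression (RLE) scaling, all deposited reads as library size, a minimum mean of 10 CPM, 1 fit of 30 libraries, summed forms, a replicate block, title numbers in 3 runs and leaving out each library. Leaving out CD20 animals 1 and 2, or CD12 animals 2 and 4, was chosen after seeing the data. The rule for named sequences took all 15 members, full values for the canonical or most read form of each root, and the 3 sequences most like canonical miR-16, miR-195 and miR-497. Forms named beyond that were chosen after their values were seen. The quasi-likelihood comparisons of groups were tried on simulated data. The interaction, the likelihood ratio test and DESeq2 were not part of that trial. One library per animal makes the animals the replicates. Reads carry no molecular identifiers, so limits from a count of 0 cover counting error only.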

Additional observations from a re-analysis of the deposited data

Results flagged for a closer look

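Each group of 4 to 6 animals was searched for an animal far from the others, for 5 members and 5 ratios, and 4 of 60 such groups held one, where chance gives about 1 in 20. miR-15b in PD20 animal 6 was 14.6 CPM, and canonical miR-16 in PD20 animal 4 was 167 CPM, each well above the rest of PD20. PD12 animal 3 had the lowest log2 share of canonical reads in miR-16 of its group (-1.12) and the highest log2 ratio of miR-497 ADD A and ADD AC to canonical miR-497 (1.68). This search did not find CD20 animals 1 and 2.

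The change from day 16 to day 20 differed between pregnant and cyclic animals by the interaction test of edgeR for miR-16 DEL G (-1.82 on the log2 scale) and miR-16 ADD T (-3.22). By that test 2.41% of all sequences were called. Neither member was called without CD20 animal 1, CD20 animal 2, PD16 animal 5 or CD16 animal 5. With the replicate number as a block neither was called either. In each of these fits 0 of all sequences were called. In the data outside the annotation list, 18.3% of reads with the first 18 bases of miR-16 and 12.6% of those with the first 18 bases of miR-195 were on sequences that it does not hold.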

How the results depend on the processing

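No member was called for PD16 vs. PD12, PD20 vs. PD12, PD20 vs. PD16, PD12 vs. CD12 or PD16 vs. CD16 under any alternative run. For these comparisons the counts over all sequences by the likelihood ratio test and DESeq2 are given above. Those under the other alternatives are not given. Elsewhere the number of members called was 1, 3, 4 and 5 by the likelihood ratio test and 1, 3, 6 and 5 by DESeq2 for CD16 vs. CD12, CD20 vs. CD12, CD20 vs. CD16 and PD20 vs. CD20. With all 30 libraries in one fit it was 1, 4, 7 and 4, where 4.01%, 5.73%, 7.33% and 11.2% of all sequences were called. Scaled by all deposited reads it was 1 for PD20 vs. CD20 (1.83% of all), and with forms summed 1 of 5 miRNAs for CD20 vs. CD16 and 0 of 5 for PD20 vs. CD20. The interaction for day 20 against day 16 gave 2 calls, 4 by the likelihood ratio test (5.38% of all), 4 without CD12 animals 2 and 4 (2.29% of all), and 0 without CD20 animals 1 and 2. Leaving out 1 library gave 0 to 4 calls for CD20 vs. CD16 (0% to 4.12% of all), 0 to 5 for PD20 vs. CD20 (0.573% to 13.3%), 0 to 4 for this interaction (0% to 3.89%) and 0 for the others. The calls for CD20 vs. CD16 came without CD20 animal 3 (4) or 4 (3), and those for PD20 vs. CD20 without PD20 animal 4 (5) or CD20 animals 4 (5), 5 (4) or 3 (1). On leaving out 1 library, the count at an unadjusted p under 0.05 was 6 to 11 for CD20 vs. CD16. It was 5 to 8 for PD20 vs. CD20, 1 to 3 for PD20 vs. PD16 and 1 to 2 for PD16 vs. CD16. For the joint test of pregnant days and for PD12 vs. CD12 it was 0 to 2. The count of 6, without CD20 animal 1, stood against 13.7% of all sequences, and the others are given without a share. With a minimum of 10 CPM the count for CD20 vs. CD16 was 5. Fewer members were tested there, so that count is not comparable with the others. Without CD20 animals 1 and 2 the count was 1 for CD20 vs. CD16 (7.45% of all) and 1 for PD20 vs. CD20 (11.3% of all). Without those animals miR-15b turned to -0.27 for CD20 vs. CD16, and for PD20 vs. CD20 miR-15b turned to 0.24, miR-16 DEL CG to 0.35, miR-195 DEL C to 0.0029, miR-195 ADD AT to 0.075 and miR-424 to 0.10. Leaving out 1 library moved miR-15b between -0.27 and 0.54 for CD20 vs. CD16 and between -0.32 and 0.19 for PD20 vs. CD20. Scaling by all deposited reads moved the median of all sequences by 0.25 for CD20 vs. CD16 and by -0.23 for PD20 vs. CD20, and the signs of the 15 members in both comparisons were the same under it and under RLE. Beyond the smaller number of members tested at 10 CPM, the cause of these differences was not tested.

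Replicate numbers are not stated to pair animals, and of 70 pairs with the same number 17 had a correlation of deviations over 0.1 (median -0.04). With the replicate number as a replicate block 0 members were called in every comparison, interactions included, where 2 were called without it, and the median log2FC of the members for CD16 vs. CD12 was 0.01. Levels near 5 CPM rest on few reads, and depth limits what can be shown for miR-15b, miR-424 and the miR-497 forms.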
